A study of Arabidopsis thaliana with 6 samples.

Results

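Transcript levels of 6 Arabidopsis thaliana genes of the HSP70 and HSP90 chaperone machinery were followed in seedlings treated with NJ15. They are the cytosolic HSP70 gene AT3G09440, the J-domain (DnaJ) genes AT2G20560 and AT3G14200, the HSP70 exchange factor Fes1A (AT3G09350), the adaptor Hop3 (AT4G12400) and the immunophilin ROF2 (AT5G48570). These 6 were picked out of 13286 genes with a named probe set, both for their chaperone function and because earlier results on the same arrays had shown them higher in NJ15 than in mock seedlings. Their NJ15 and mock values are therefore given as a description with no test. Each of the 6 genes was measured by 1 probe set that the platform annotation pairs with that gene alone.

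The NJ15 group held 3 samples of Col-0 wild-type seedlings, 4 days old, sprayed with 10 µM NJ15, a dichlorophenyl tetrazole with an acetic acid ethyl ester side chain. The mock group held 3 samples of the same strain and age sprayed with mock solution. Both groups were turned by 90 degrees after the spray and harvested 8 h later, so the mock seedlings carry the response to reorientation too. RNA came from whole seedlings, was labelled and was hybridised to 1 Affymetrix array per sample; the labels describe the samples as biological replicates, and 3 arrays a group limit the precision.

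HSP70 proteins bind unfolded stretches of other proteins and release them in a cycle driven by ATP. J-domain proteins bring clients and make HSP70 hydrolyse its ATP, exchange factors such as Fes1 proteins reset it by releasing ADP, and Hop adaptors, which bind the tails of both chaperones through TPR (tetratricopeptide) domains, pass clients on to HSP90. Many genes of this machinery are known in plants for their induction by heat and by other conditions that unfold cytosolic proteins. Levels and differences below are on the log2 scale, where a difference of 1 is 2-fold, unless a linear fold is named.

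The arrays set one limit that touches every gene. Of 22746 tested probe sets, 16602 (73.0%) hold 6 values within a span of 0.01. Such probe sets, named flat in what follows, carry no measurable difference; the other 6144 are named varying. All 6 genes lie on varying probe sets. Array medians over all probe sets lay between 7.26 and 7.27 in the NJ15 group and between 7.24 and 7.26 in the mock group.

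All 6 genes were higher in every NJ15 array than in any mock array, and each was at least 2-fold higher by its group means. Of all 22746 probe sets, 112 (0.492%) met that same description in the NJ15 direction, which is 1.82% of the varying ones; because the 6 genes were chosen on this comparison, nothing is read from the contrast of these shares. The median log2 fold change of the 6 genes was 2.07, against -0.01 over the varying probe sets. Log2 fold changes ran from 1.26 for AT3G09440 to 2.62 for ROF2. In RNA of whole seedlings, more cells of a type and more RNA per cell cannot be told apart.

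**Figure D1:**
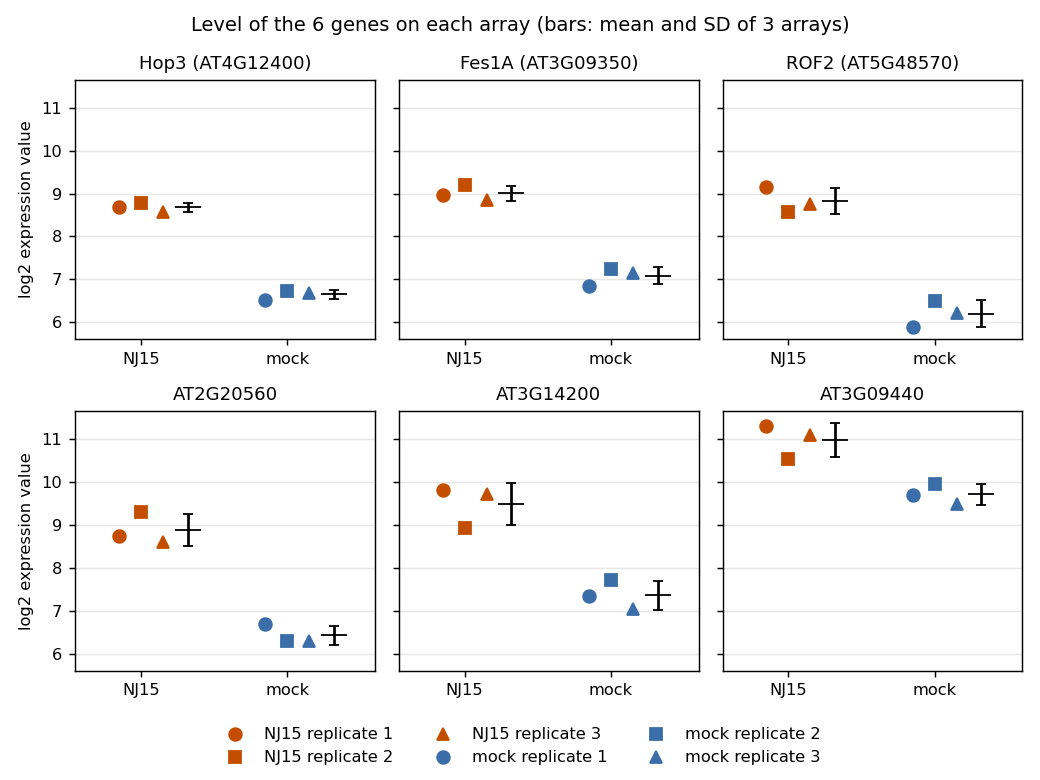
Log2 expression value (y axis) of each of the 6 genes on the 3 NJ15 arrays and the 3 mock arrays; marker shape gives the replicate number, and the black bar is the group mean with its SD. In every panel the NJ15 points lie above all mock points, with the smallest gap, 0.57, for AT3G09440 and the largest, 2.07, for ROF2.

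AT3G09440 encodes a cytosolic HSP70, the central chaperone of the cycle. Its level was 11.30, 10.53 and 11.10 in NJ15 replicates 1, 2 and 3, against 9.71, 9.96 and 9.48 in mock replicates 1, 2 and 3. Replicate 2 was the lowest NJ15 array and replicate 2 the highest mock array, and the gap between these nearest arrays was 0.57. The means were 10.98 ± 0.40 in NJ15 and 9.72 ± 0.24 in mock seedlings (SD, n = 3 each), a log2 fold change of 1.26 or 2.40-fold. This was the smallest difference of the 6, at rank 105 of the 22746 probe sets ordered by log2 fold change. Cytosolic HSP70 genes are close in sequence, and how far this probe set also takes up transcripts of its relatives was not tested.

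AT2G20560 encodes a J-domain protein, of the class that delivers clients to HSP70. It stood at 8.74, 9.32 and 8.61 in NJ15 replicates 1, 2 and 3, against 6.69, 6.30 and 6.30 in mock replicates 1, 2 and 3. Here replicate 2 was the highest NJ15 array and replicate 1 the highest mock array, and the groups were 1.93 apart at their nearest. The means were 8.89 ± 0.37 in NJ15 and 6.43 ± 0.22 in mock seedlings (SD, n = 3 each), a log2 fold change of 2.46 or 5.49-fold, at rank 20.

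AT3G14200 encodes a further J-domain protein. Its values were 9.81, 8.94 and 9.72 in NJ15 replicates 1, 2 and 3, against 7.34, 7.72 and 7.04 in mock replicates 1, 2 and 3. Replicate 2 was low among the NJ15 arrays and high among the mock arrays, as for AT3G09440, and the nearest arrays were 1.22 apart. The means were 9.49 ± 0.48 in NJ15 and 7.37 ± 0.34 in mock seedlings (SD, n = 3 each), a log2 fold change of 2.12 or 4.35-fold. Both SDs were the largest among the 6 genes. The log2 fold changes of the J-domain genes AT2G20560 and AT3G14200 differed by 0.34. Their standard errors were 0.25 for AT2G20560 and 0.34 for AT3G14200, and whether the 2 fold changes differ was not tested.

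Fes1A encodes a nucleotide exchange factor of cytosolic HSP70, which opens the chaperone for a new round of ATP binding. It stood at 8.97, 9.19 and 8.85 in NJ15 replicates 1, 2 and 3, against 6.86, 7.24 and 7.16 in mock replicates 1, 2 and 3. Replicates lay close together in both groups, with 1.61 between the nearest arrays. The means were 9.002 ± 0.17 in NJ15 and 7.08 ± 0.20 in mock seedlings (SD, n = 3 each), a log2 fold change of 1.92 or 3.78-fold, at rank 39.

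Hop3 encodes the adaptor that holds HSP70 and HSP90 together while a client is handed over. Its level was 8.68, 8.78 and 8.57 in NJ15 replicates 1, 2 and 3, against 6.53, 6.73 and 6.69 in mock replicates 1, 2 and 3. This was the tightest of the 6 genes, with a range of 0.20 within each group and 1.84 between the nearest arrays of the 2 groups. The means were 8.68 ± 0.10 in NJ15 and 6.65 ± 0.11 in mock seedlings (SD, n = 3 each), a log2 fold change of 2.03 or 4.07-fold, at rank 34.

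ROF2 encodes an immunophilin of the FKBP family with a TPR domain, and its gene is known to be induced by heat. It stood at 9.14, 8.56 and 8.76 in NJ15 replicates 1, 2 and 3, against 5.88, 6.50 and 6.22 in mock replicates 1, 2 and 3. The nearest arrays of the groups were 2.07 apart, the widest gap of the 6 genes. The means were 8.82 ± 0.30 in NJ15 and 6.20 ± 0.31 in mock seedlings (SD, n = 3 each), a log2 fold change of 2.62 or 6.16-fold, at rank 16. ROF2 exceeded AT3G09440 by 1.36 in log2 fold change, and AT2G20560 exceeded it by 1.19. The mock levels differed as well. Of all probe sets, 14.9% lay below the mock mean of ROF2, 26% below that of AT2G20560 and 93.3% below that of AT3G09440. Whether the size of the fold change depends on signal level was not tested.

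**Figure D2:**
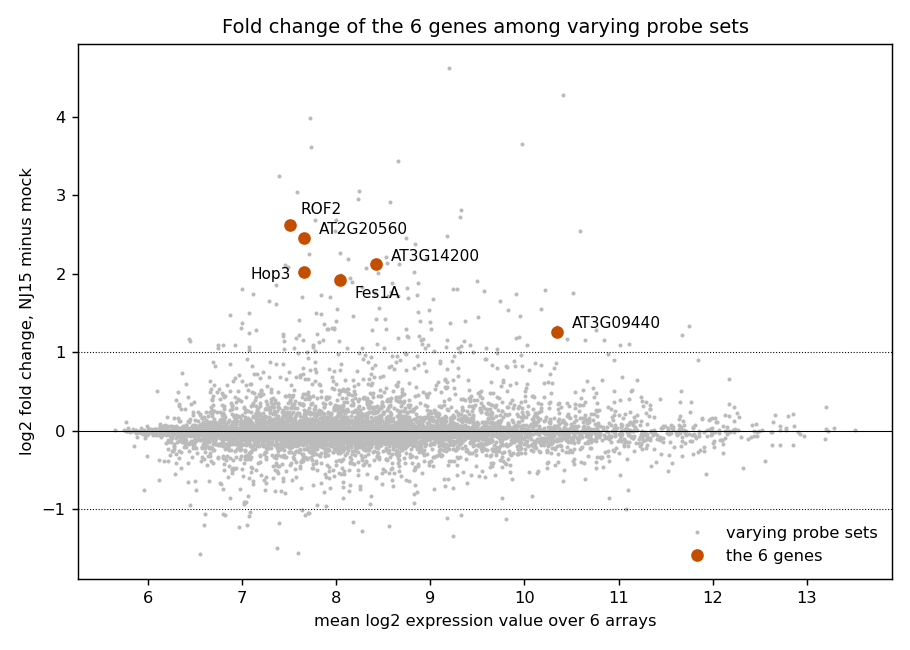
Log2 fold change, NJ15 minus mock (y axis), against the mean log2 expression value over the 6 arrays (x axis) for the 6144 varying probe sets in grey and the 6 genes in orange; dotted lines mark a 2-fold difference. The 6 genes lie above the upper dotted line, from rank 16 (ROF2) to rank 105 (AT3G09440) in log2 fold change.

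Leaving out any single array did not bring a log2 fold change of these genes below 1.10. The range over the 6 leave-outs was 1.97 to 2.08 for Hop3, 1.80 to 2.00 for Fes1A, 2.46 to 2.77 for ROF2, 2.24 to 2.60 for AT2G20560 and 1.96 to 2.40 for AT3G14200. AT3G09440 had the lowest range, 1.10 without NJ15 replicate 1 to 1.49 without NJ15 replicate 2.

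Within the NJ15 group the 6 genes fell into 2 patterns. Hop3, Fes1A and AT2G20560 were highest in NJ15 replicate 2 and lowest in NJ15 replicate 3, while ROF2, AT3G14200 and AT3G09440 were highest in NJ15 replicate 1 and lowest in NJ15 replicate 2. In NJ15 replicate 2 the deviation from the NJ15 mean was -0.55 for AT3G14200, -0.45 for AT3G09440 and -0.26 for ROF2. It was 0.43 for AT2G20560, 0.19 for Fes1A and 0.10 for Hop3. In the mock group 5 of the 6 genes were highest in replicate 2, and the exception was AT2G20560, highest in replicate 1 by 0.26 over its mock mean. Among the other 106 probe sets that were at least 2-fold higher with the groups apart, NJ15 replicate 2 was the highest NJ15 array in 51 (48.1%) and the lowest in 19 (17.9%). In the same 106, NJ15 replicate 1 was the highest in 47 and NJ15 replicate 3 the lowest in 79, so both of these orders were common there. Mock replicate 2 was the highest mock array in 33 (31.1%) of them. These are orders within 3 arrays and carry no test.

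**Figure D3:**
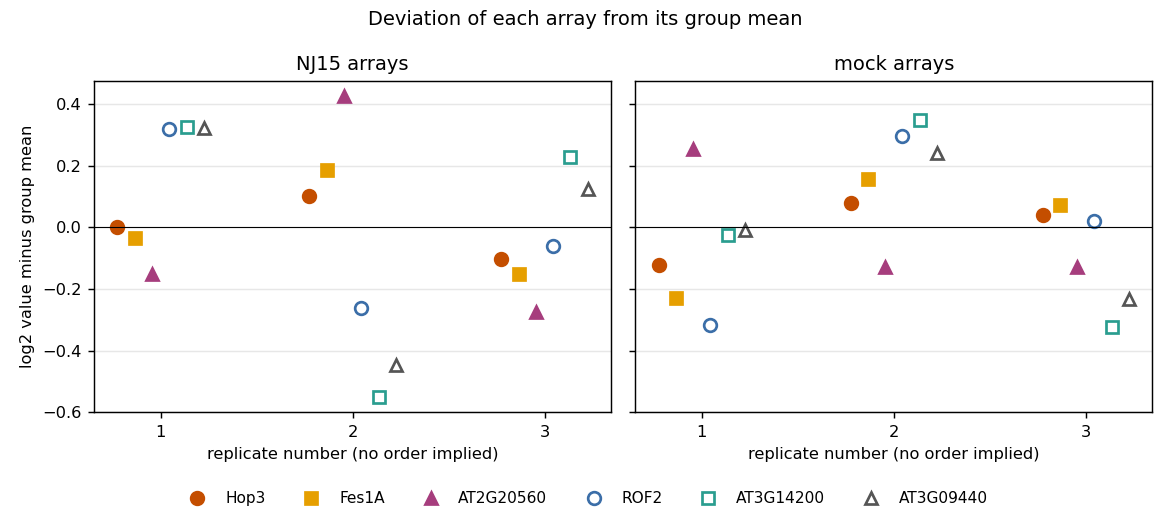
Deviation of each array from its own group mean (y axis, log2 units) for the 6 genes in the NJ15 arrays (left) and the mock arrays (right), by replicate number. Filled markers are Hop3, Fes1A and AT2G20560, which lie above 0 in NJ15 replicate 2; open markers are ROF2, AT3G14200 and AT3G09440, which lie below 0 there.

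The nearest values were those of Hop3 and Fes1A. With each gene's mean over the 6 arrays subtracted, their values differed by a root mean square of 0.09 log2 units over the 6 arrays, less than any other pair among the 6 genes and less than any other of the varying named genes from either of them. ROF2 was nearest to AT3G14200, at 0.35. The least alike pair was AT2G20560 and AT3G09440, at 0.76, which differed both in size and in the order of the NJ15 arrays.

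The next question was whether other genes of the same machinery differed between NJ15 and mock seedlings. Of 101 genes in 10 lists of HSP70, HSP90, their co-chaperones and J-domain proteins, 40 had a named probe set; 34 of these were not among the 6 genes above, 23 of them flat and 11 varying. None of the 34 passed the limma test in either direction, at an adjusted p under 0.05 over all 22746 probe sets. There 44 probe sets (0.193%) passed, 40 of them flat, and the largest difference among these 40 was 1e-08. The 23 flat genes could show no difference, and the 6 genes had been set aside for being higher. The test therefore bears on the 11 varying genes alone. At an unadjusted p under 0.05 there were 3 of the 11 varying genes, and 4 of the 34 with flat ones included, against 5.51% of all probe sets. The flat one, AT5G25530, differed by 1.3e-09 between the group means. A limma fit of the varying probe sets alone also called none of the 11, with 3 at an unadjusted p under 0.05 (7.70% of all varying probe sets) and 4 probe sets (0.0651%) called in all. The 11 had a median log2 fold change of 0.11, with 9 above 0 and 2 below.

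**Figure D4:**
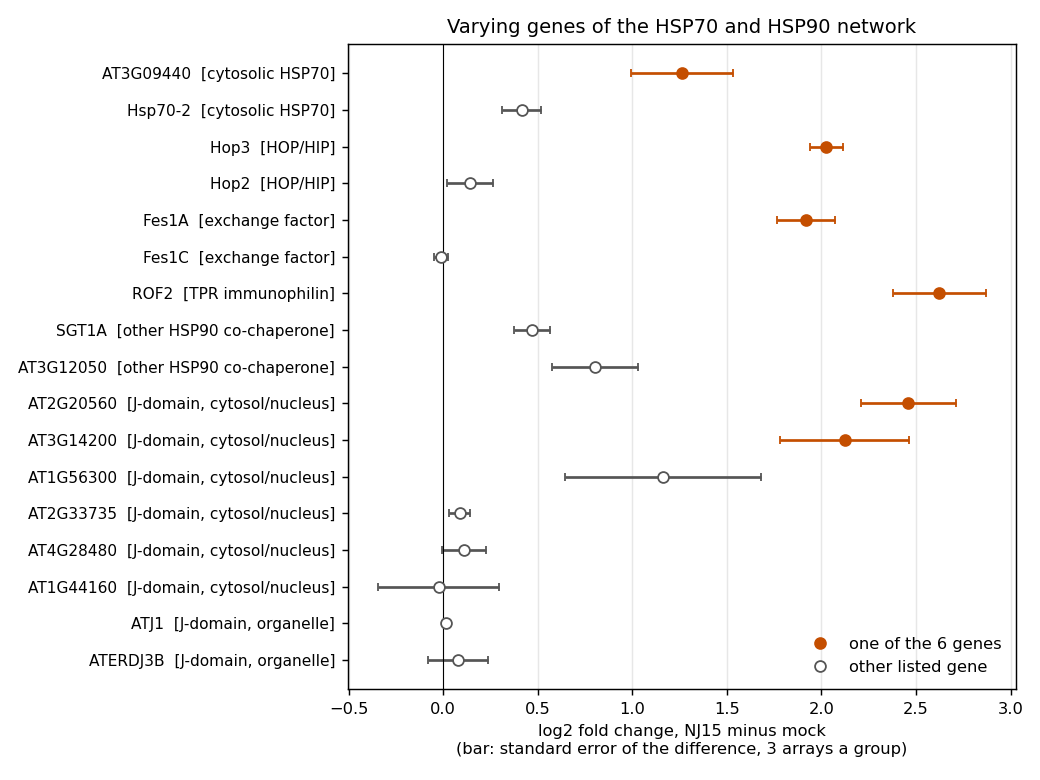
Log2 fold change, NJ15 minus mock (x axis), of the 17 varying genes of the HSP70 and HSP90 network by their kind; filled orange points are the 6 genes chosen on this comparison, open points the 11 others, and bars are the standard error of the difference between group means of 3 arrays. The open points run from -0.02 to 1.16, and 3 of them (Hsp70-2, SGT1A and AT3G12050) have NJ15 arrays that all lie above the mock arrays.

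The 3 genes at an unadjusted p under 0.05 were the only ones of the 11 whose groups did not overlap, where 6.51% of varying probe sets had all NJ15 arrays above all mock arrays. AT3G12050, from the list of HSP90 co-chaperones, had 10.23, 9.71 and 10.38 in NJ15 replicates 1, 2 and 3, against 9.13, 9.49 and 9.30 in mock replicates 1, 2 and 3. NJ15 replicate 2 came within 0.22 of the highest mock array. The groups differed by 0.80 on the log2 scale, short of the threshold (limma, adjusted p = 0.746 over all probe sets and 0.374 over varying ones).

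SGT1A, an HSP90 co-chaperone known for its part in immune receptor stability, stood at 8.66, 8.48 and 8.71 in NJ15 replicates 1, 2 and 3, against 8.19, 8.23 and 8.02 in mock replicates 1, 2 and 3. The groups were apart by 0.25 at their nearest arrays. The log2 fold change was 0.47 and it did not pass (limma, adjusted p = 0.624; 0.251 over varying probe sets). Hsp70-2 is a cytosolic HSP70, and the only relative of AT3G09440 among the 7 listed that had a named probe set. It stood at 8.87, 8.75 and 8.93 in NJ15 replicates 1, 2 and 3, against 8.36, 8.61 and 8.33 in mock replicates 1, 2 and 3. Its nearest arrays, replicate 2 of each group, were 0.14 apart. The log2 fold change was 0.41 and it did not pass either (limma, adjusted p = 0.715; 0.343 over varying probe sets).

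The closest relatives of Hop3 and Fes1A had small differences or none that could be measured. Hop1 and Fes1B were flat. Hop2, which belongs to the same adaptor family as Hop3, had 8.90, 8.60 and 8.92 in NJ15 replicates 1, 2 and 3, against 8.59, 8.80 and 8.61 in mock replicates 1, 2 and 3. These groups overlapped, with means 0.14 apart on the log2 scale (limma, adjusted p = 0.943). Fes1C differed by -0.01 on the log2 scale (limma, adjusted p = 1), with means of 7.54 ± 0.04 in NJ15 and 7.55 ± 0.05 in mock seedlings (SD, n = 3 each). Whether Hop3 differs from Hop2, or Fes1A from Fes1C, was not tested, since Hop3 and Fes1A were chosen for their difference.

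J-domain proteins made up the longest list of the cytosol and nucleus, with 23 of 32 genes measured. Beside AT2G20560 and AT3G14200, 17 of these were flat and 4 varied, and none passed. AT1G56300 had the largest difference of the 4, 1.16 on the log2 scale (limma, adjusted p = 0.830), with 8.97, 7.79 and 8.55 in NJ15 replicates 1, 2 and 3, against 7.98, 7.20 and 6.64 in mock replicates 1, 2 and 3. Its groups overlapped because mock replicate 1 stood above NJ15 replicate 2. AT4G28480, AT2G33735 and AT1G44160 had log2 fold changes of 0.11, 0.09 and -0.02 (limma, adjusted p = 0.952, 0.923 and 1).

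Chaperone genes of other compartments were thinly covered. The J-domain genes ATERDJ3B, of the endoplasmic reticulum, and ATJ1, of mitochondria, had log2 fold changes of 0.08 and 0.01 and did not pass (limma, adjusted p = 1 and 0.983). Outside the lists of organelle genes, the immunophilin-related SQN, a cyclophilin with a TPR domain, was flat in its brighter probe set. Also flat were AT4G02450, from the list of HSP90 co-chaperones, and the HSP110-type genes AT1G11660 and AT4G16660. The 7 HSP90 genes and the 7 HSP70 genes of organelles had no probe set paired with them in the annotation used, which leaves 8730 tested probe sets unlisted, so they were not analysed here. Unlisted probe sets may hold some of them, and whether these genes differed was not tested. The result above therefore covers only the 34 measured genes, of which 23 were flat and could show no difference.

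In the listed genes outside the 6, NJ15 replicate 2 was the lowest NJ15 array in 9 of the 11 varying ones and the highest in 0. Over all 6144 varying probe sets it was the lowest in 33.8% and the highest in 35.4%; these shares carry no test. ROF2, AT3G14200 and AT3G09440 share that low array, and Hop3, Fes1A and AT2G20560 do not.

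The genes most like the 6, whatever their function, were sought among 3039 other varying named genes. They were ranked by root mean square difference over the 6 arrays from the mean of the 6 genes, each gene less its own mean. Of the 112 probe sets at least 2-fold higher with the groups apart, 47 stood for a named gene, the 6 included. The rest were not compared, so closer matches among them were not sought. Among the named genes, the nearest was AT2G19310, at 0.25 log2 units, followed by AT1G67360 at 0.26. Then came AT5G12110 at 0.34, AT3G07090 at 0.39, AT1G30070 at 0.40, AT5G25450 at 0.41, AT5G35320 at 0.44 and AT1G72800 at 0.45. On the same measure the 6 genes themselves lay at 0.12 (Hop3) to 0.45 (AT3G09440) from their mean. These distances are not like for like, since each of the 6 genes enters that mean and the 8 were picked as the nearest of 3039.

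AT2G19310 stood at 9.93, 9.29 and 9.60 in NJ15 replicates 1, 2 and 3, against 8.04, 8.08 and 7.61 in mock replicates 1, 2 and 3, with the low NJ15 replicate 2 also seen in AT3G14200, whose nearest gene it was, at 0.27. AT1G67360 stood at 9.75, 10.23 and 9.53 in NJ15 replicates 1, 2 and 3, against 7.72, 8.15 and 7.57 in mock replicates 1, 2 and 3. It shares the high NJ15 replicate 2 with AT2G20560 and was nearest to that gene, at 0.33. The nearest gene to AT3G09440 was AT3G07090, at 0.14, with 10.14, 9.70 and 10.36 in NJ15 replicates 1, 2 and 3, against 8.69, 8.90 and 8.42 in mock replicates 1, 2 and 3. These likenesses describe 6 arrays, were sought on the values that chose the 6 genes, and carry no test.

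**Figure D5:**
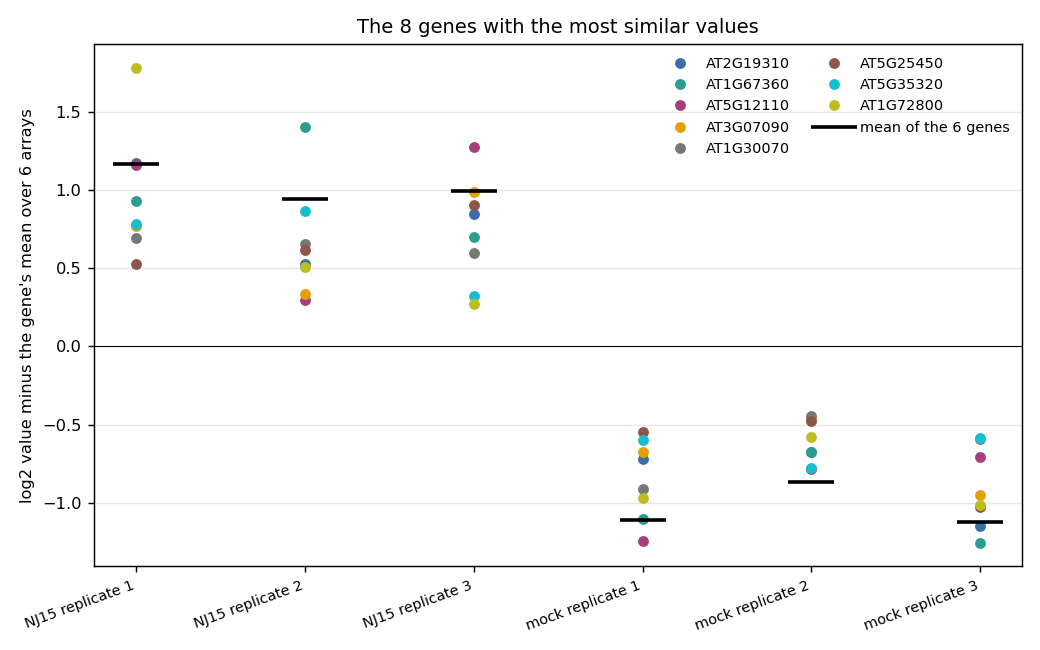
Log2 value minus the gene's own mean over 6 arrays (y axis) on each NJ15 and mock array (x axis). Coloured points are the 8 named genes most like the 6, and the black bar is the mean of the 6 genes. All 8 genes lie above 0 in the NJ15 arrays and below 0 in the mock arrays, and AT1G67360 is the highest point in NJ15 replicate 2.

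Green tissue markers were measured to set the makeup of the seedling material beside these values. Of 10 listed photosynthetic genes, 5 were measured (LHCB4.1, LHCB4.2, RCA, PRK and SBPASE), all varied and none was low. Their mean level was 10.72, 11.35 and 11.29 in NJ15 replicates 1, 2 and 3, against 10.33, 11.14 and 11.74 in mock replicates 1, 2 and 3. The groups overlapped, with means of 11.12 ± 0.34 in NJ15 and 11.07 ± 0.71 in mock seedlings (SD, n = 3 each), and a two-sided exact permutation test gave p = 0.9 (its smallest possible p at 3 against 3 is 0.1). The mock arrays thus spread more widely in green tissue signal than the groups differed, and replicate 1 was the lowest array in both groups. Of 9 listed root genes only EXPA7 and EXPA18 were measured and both were flat, so the share of root RNA was not analysed here.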

How the data were processed

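Per the labels' protocols, RNA of whole seedlings was biotin-labelled and hybridised to Affymetrix arrays, 3 per group; R 2.7.2 is named per the submitters' processing notes. The authors deposited log2 values, 1 for each probe set on each array; the base was read from the range of 5.30 to 14.04. How background was corrected, and how arrays were scaled and probes summarized, is not given in the sources used here, and no scanner values show the signal over background.

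No further normalization was applied. Of 22810 probe sets, 64 controls were left out. Before the fit, the first array's value was subtracted within each probe set, with 9 decimals kept. The contrast of NJ15 minus mock was fitted in R 4.3.3 with limma 3.58.1 (lmFit, eBayes; two-sided), and p-values were adjusted by Benjamini and Hochberg's method across the 22746 probe sets, at a threshold of 0.05; the fit was tested on simulated data. Genes were named from the platform annotation through a TAIR10.1 gene table: 13513 probe sets had 1 gene, 503 several, and 8730 were unlisted and stay unnamed. The brightest probe set stood for a gene.

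The 6 genes and all lists were chosen with earlier results of these data known. Up to 6 varying genes of each list, those with the smallest p, and the 8 genes most like the 6 were named. Alternatives were quantile normalization, centring of array medians, a filter on low means (the lowest 25%), an intensity trend with robust estimation, varying probe sets only, the replicate number as a block, the mean of a gene's probe sets and each array left out. Planned promoter and protein comparisons were not run. Plots were made in Python 3.11.15 (matplotlib 3.10.9).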

Additional observations from a re-analysis of the deposited data

How the results depend on the processing

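Under the 13 alternatives, 104 values of the 6 genes were set beside the deposited-value result. Each log2 fold change stayed within 1 SD between replicates of it, and their median within the median of these SDs. The count of genes at least 2-fold higher with the groups apart stayed at 6. For 40 of the values, under 5 alternatives that cannot move a difference of these group means (low means, intensity trend, varying probe sets, replicate block and mean of probe sets), this holds by construction. That leaves 64 values under 8 alternatives. Leaving out an array cannot make separated groups overlap, so that part of the count was fixed there too. Because the 6 genes were chosen on this comparison, their stability is a description only. The median log2 fold change lay between 1.99 and 2.18 over the leave-outs. The number of probe sets called by limma depended on the setting: 44 in the deposited values, 0 after quantile normalization (3347 at an unadjusted p under 0.05), 17165 after centring of array medians, 1 without low means, 0 with an intensity trend and robust estimation (886 at an unadjusted p under 0.05), 4 over varying probe sets and 4 to 15 over the leave-outs. With the replicate block the count was 0 (1208 at an unadjusted p under 0.05); same-numbered arrays correlated in their deviations from the group means at r = 0.59, -0.30 and 0.19 over the 6144 varying probe sets, so the numbers were not taken to pair the samples, and no listed gene was called with the block. Centring moved the median log2 fold change of the whole table by -0.018, flat probe sets included. Of the 17165 probe sets it called, 16591 were flat and 16929 were lower in NJ15. It called 26 of the 34 listed genes, 23 of them flat and 3 varying. The varying ones were Hsp70-2, SGT1A and AT3G12050, each at a limma adjusted p of 0.0371 (0.48 to 0.95, 0.57 to 0.87 and 0.58 to 0.95 over the leave-outs). The adjustment ran over all probe sets, the flat calls included, and no difference is read from these 3 calls. None of the 34 was called under the other alternatives. Small differences turned sign in 8 of 143 values: the leave-outs ran from -0.036 to 0.017 for Fes1C, -0.34 to 0.19 for AT1G44160, -0.0014 to 0.026 for ATJ1 and -0.025 to 0.21 for ATERDJ3B, and ATJ1 was -0.0012 after quantile normalization and -0.0041 after centring. Hop2 ran from 0.08 to 0.24, AT4G28480 from 0.04 to 0.21 and AT2G33735 from 0.05 to 0.12, and the green tissue mean from -0.32 without mock replicate 1 to 0.38 without mock replicate 3. The cause of these changes was not tested.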
